A study of Homo sapiens with 18 samples.

Results

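Human chromosome 19 carries 246 protein-coding genes whose symbol is ZNF followed by a number, with or without a letter, and the deposited AML1-ETO peaks at these genes are described here. They were taken by symbol from RefSeq's annotation of GRCh38.p14, out of 1451 protein-coding genes on chromosome 19 and 19974 on chromosomes 1 to 22 and X. No peak was used to choose them. The other 1205 protein-coding genes of chromosome 19 served for comparison.

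The study asked whether the genomic occupancy of AML1-ETO differs when the microRNA miR-130a is knocked down. AML1-ETO is the fusion of the transcription factor RUNX1 (AML1) with the corepressor RUNX1T1 (ETO) made by the t(8;21) translocation of acute myeloid leukaemia. Kasumi-1 is a leukaemia cell line with that translocation, and every library came from Kasumi-1 cells that also carried AML1-ETO with a Flag tag, controls included. In CUT&RUN an antibody directs a nuclease to its target, and the DNA released around bound sites is sequenced. The 18 libraries formed 6 groups of 3: control or miR-130a knockdown cells, each profiled with anti-ETO, with anti-Flag or with mouse IgG. All cells had been transduced and were sorted as GFP-positive 3 days later. Kasumi-1 is a single line, no label says that replicates came from separate transductions, and the lists hold no measure of miR-130a by which the knockdown could be checked.

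The data were 9 lists of peak intervals. There was 1 list for each antibody and condition (control ETO, control Flag, knockdown ETO, knockdown Flag). A further list for each condition held the peaks called by both antibodies, and 3 lists made from those held shared, control-unique and knockdown-unique peaks. The lists gave no heights, scores, read numbers or values per library, so depth was unknown and no difference between control and knockdown could be set against the spread between replicates. No p-value is therefore given. Shares carry 95% Wilson intervals over genes or peaks, which cover counting error only, since neighbouring genes and peaks are not replicates of a condition. A gene counted as having a peak where at least 1 bp of a peak lay in its body or within 1 kb of it.

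Most chromosome 19 ZNF genes encode proteins with an array of C2H2 zinc fingers that read DNA, and many also carry a KRAB domain that recruits the corepressor TRIM28 (KAP1). TRIM28 brings in the histone H3 lysine 9 methylase SETDB1 and heterochromatin proteins, and many KRAB zinc finger proteins silence transposable elements in this way. The genes arose by repeated tandem duplication, stand in clusters of related copies and have similar sequences. Reads from near-identical copies can map to more than one place; how the authors treated such reads is not given in the sources used here, and its part in the counts was not tested.

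Promoter sequences of 4 genes show the kinds of region concerned. They are the 250 bases before an annotated start, from RefSeq (GRCh38.p14), written 5' to 3' on the gene's strand. Capitals mark a match, on either strand, to TGTGGT or TGCGGT, cores of the kind bound by RUNX proteins. ZNF443 (chr19:12441022-12441271, minus strand) was under the widest shared peak at any of these genes. ZNF428 (chr19:43619630-43619879, minus strand) had the widest control-unique peak over a start among the genes with a promoter entry. ZNF563 (chr19:12333634-12333883, minus strand) had the widest knockdown-unique peak. ZNF577 (chr19:51887952-51888201, minus strand) had no peak in any list, and is the longest such gene with a promoter entry in the cluster with the lowest share of occupied genes.
ZNF443: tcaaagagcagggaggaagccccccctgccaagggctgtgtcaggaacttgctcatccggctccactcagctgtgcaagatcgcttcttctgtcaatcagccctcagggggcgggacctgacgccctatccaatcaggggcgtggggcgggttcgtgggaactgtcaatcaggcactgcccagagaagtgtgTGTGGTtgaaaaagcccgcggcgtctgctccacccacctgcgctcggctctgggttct
ZNF428: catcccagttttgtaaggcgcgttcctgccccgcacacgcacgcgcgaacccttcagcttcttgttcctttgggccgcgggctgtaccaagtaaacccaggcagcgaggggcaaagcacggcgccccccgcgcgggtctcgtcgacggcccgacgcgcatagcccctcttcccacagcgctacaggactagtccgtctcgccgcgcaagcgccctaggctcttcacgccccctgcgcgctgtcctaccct
ZNF563: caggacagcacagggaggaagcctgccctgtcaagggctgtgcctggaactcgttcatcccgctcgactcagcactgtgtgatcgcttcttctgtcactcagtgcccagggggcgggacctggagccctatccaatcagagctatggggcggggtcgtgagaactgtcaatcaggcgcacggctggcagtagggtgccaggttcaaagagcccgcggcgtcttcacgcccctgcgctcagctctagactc
ZNF577: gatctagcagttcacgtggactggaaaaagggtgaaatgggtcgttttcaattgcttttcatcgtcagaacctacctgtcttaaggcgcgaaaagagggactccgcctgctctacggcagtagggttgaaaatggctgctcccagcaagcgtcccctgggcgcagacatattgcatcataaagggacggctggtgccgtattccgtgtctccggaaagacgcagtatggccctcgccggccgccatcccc
The ZNF443 stretch held 1 such match and the other 3 held none. GC content was 61.6% for ZNF443, 67.2% for ZNF428, 62.4% for ZNF563 and 55.6% for ZNF577.

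A smaller share of ZNF genes than of other chromosome 19 genes had a peak, in every list. A control ETO peak was present at 92 of the 246 ZNF genes, 37.4% (31.6 to 43.6), against 55.6% of the other chromosome 19 genes and a background of 41.1% of all protein-coding genes. Control Flag peaks lay at 97 ZNF genes, 39.4% (33.5 to 45.7), against 65.3% of the other genes and a background of 43.8%. Knockdown ETO peaks lay at 121 ZNF genes, 49.2% (43.0 to 55.4), against 66.2% and a background of 47.8%. Knockdown Flag peaks lay at 87 ZNF genes, 35.4% (29.7 to 41.5), against 65.7% and a background of 36.4%. The differences from the other chromosome 19 genes ranged from -17.0 percentage points in knockdown ETO to -30.4 in knockdown Flag. Set against all protein-coding genes the ZNF shares were close to the background, and the other genes of chromosome 19 stood above it.

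**Figure D1:**
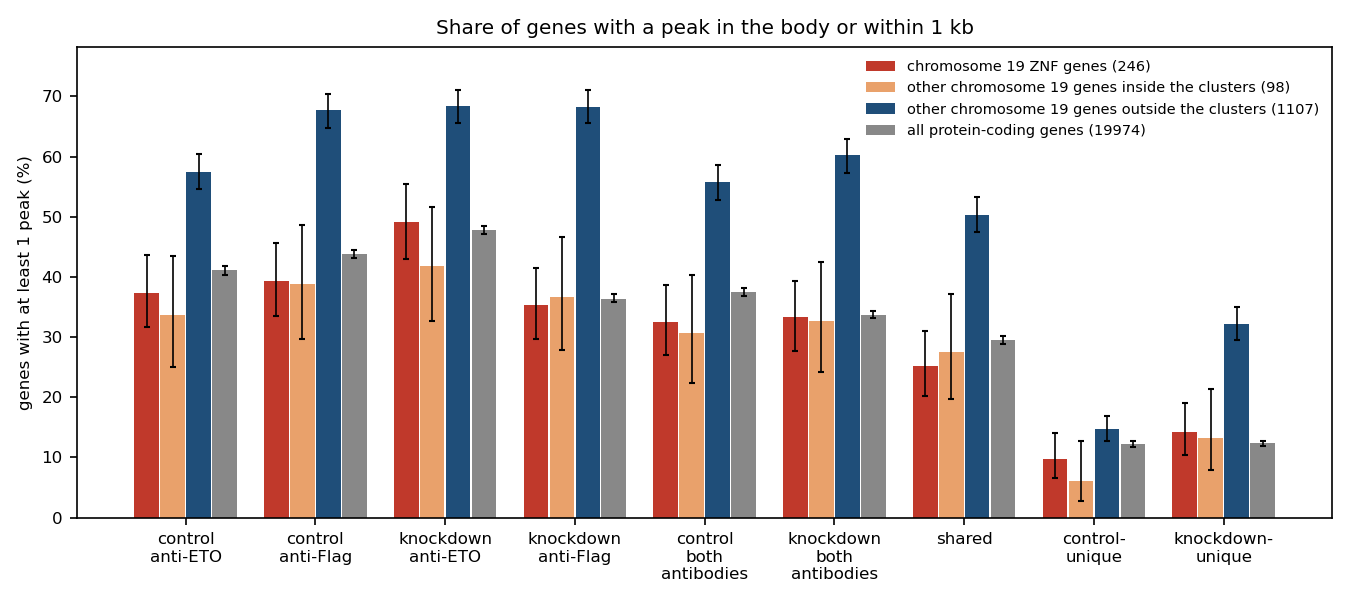
Percentage of genes with at least 1 peak in the body or within 1 kb, for each of the 9 lists (x axis) and 4 gene sets (bar colours); error bars are 95% Wilson intervals over genes. In each list the ZNF genes stand below the other chromosome 19 genes outside the clusters and near the other genes inside them.

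Peaks called by both antibodies gave the same order. They lay at 80 ZNF genes in control, 32.5% (27.0 to 38.6), against 53.7% of the other chromosome 19 genes and a background of 37.5%. In knockdown they lay at 82 ZNF genes, 33.3% (27.7 to 39.4), against 57.9% and a background of 33.7%. Shared peaks, called by both antibodies in both conditions, lay at 62 ZNF genes, 25.2% (20.2 to 31.0), against 48.5% and a background of 29.5%.

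In all, 126 ZNF genes (51.2%) had a peak in at least 1 single-antibody list, against 896 of the other 1205 (74.4%) and a background of 52.8%. Of these, 69 ZNF genes (28.0%) had peaks in all 4 lists, against 51.2% of the other genes and a background of 31.0%. The remaining 120 ZNF genes had no peak in any of the 4.

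Location in a cluster went with the difference. ZNF genes were grouped in order along the chromosome, with a new cluster wherever successive genes lay more than 500 kb apart. The stretches so defined also hold 98 other protein-coding genes, and taken over all clusters these had peaks about as often as the ZNF genes: 33.7% in control ETO, 38.8% in control Flag, 41.8% in knockdown ETO and 36.7% in knockdown Flag. The 1107 other genes outside the clusters had them in 57.5%, 67.7%, 68.4% and 68.3%. Compared only with the 98 genes around them, the ZNF genes differed by 3.72, 0.655, 7.35 and -1.37 percentage points in the 4 lists, so that the lower share held in knockdown Flag alone and the direction turned in the other lists. For shared peaks the difference became -2.35 points. For peaks of both antibodies it turned to 1.91 points in control and 0.680 in knockdown, and for unique peaks to 3.63 in control and 0.962 in knockdown. Single clusters differed in opposite directions: a single-antibody peak lay at 75.0% of ZNF genes and 38.5% of 26 others from ZNF628 to ZNF835, and at 53.8% and 33.3% from ZNF414 to ZNF846, but at 10.3% and 37.5% from ZNF175 to ZNF331 and at 7 of 23 ZNF genes and 7 of 10 others from ZNF575 to ZNF180. Leaving out the genes in the clusters with zinc finger names of other kinds left 86, with shares of 31.4%, 39.5%, 41.9% and 37.2%.

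Gene length did not run the same way in both sets. ZNF genes were longer, with a median of 23.2 kb against 12.8 kb. Chromosome 19 genes were divided at 9763 and 22569 bp into 3 equal groups by length. Among other genes, the share with a single-antibody peak was 65.5%, 72.8% and 87.6% from the shortest to the longest group. Among ZNF genes it was 18 of 26 (69.2%), 49 of 90 (54.4%) and 59 of 130 (45.4%). Taken over the 4 lists together, the short ZNF genes thus had peaks about as often as other short genes. By list they did not always: 38.5% of short ZNF genes had a control ETO peak against 48.7% of other short genes, and 34.6% had a shared peak against 43.2%. Knockdown ETO and knockdown-unique peaks went the other way, at 65.4% against 57.6% and at 23.1% against 20.1%. With 26 short ZNF genes the intervals were wide (22.4 to 57.5 for control ETO). An example is ZNF536, a gene of 487995 bp singled out after its values were seen, which had no peak in any list. Length also differed by cluster. The median was 34630 bp from ZNF101 to ZNF254 (18.9% with a single-antibody peak) and 11204 bp from ZNF628 to ZNF835 (75.0%). From ZNF565 to ZNF573, however, it was 31949 bp with a share of 76.9%. Length and cluster were not separated.

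Occupancy differed widely from one cluster to the next. There were 20 clusters, counting lone genes, and the 8 with at least 10 ZNF genes held 222 of the 246. The highest share was in the cluster from ZNF653 to ZNF791 (chr19:11483429-12633834), where 20 of 25 genes (80.0%) had a single-antibody peak. In the cluster from ZNF565 to ZNF573 (chr19:36182060-37779586) it was 20 of 26 (76.9%), and from ZNF628 to ZNF835 (chr19:55476617-56671757) 12 of 16 (75.0%). The cluster nearest the end of the long arm, ZNF264 to ZNF446 (chr19:57191500-58489533), had 26 of 43 (60.5%), and ZNF414 to ZNF846 (chr19:8509678-9786160) had 7 of 13 (53.8%).

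The other 3 large clusters were mostly without peaks. From ZNF101 to ZNF254 (chr19:19668153-24129968), a span of 4.46 Mb, 7 of 37 genes (18.9%) had a peak: ZNF101, ZNF93, ZNF430, ZNF714, ZNF431, ZNF724 and ZNF254. ZNF93 encodes a repressor of LINE-1 elements, and had peaks in control ETO, knockdown ETO and knockdown Flag. From ZNF175 to ZNF331 (chr19:51571283-53580269) only ZNF480, ZNF808, ZNF83 and ZNF160 had one, 4 of 39 (10.3%). From ZNF575 to ZNF180 (chr19:43530835-44500522) there were 7 of 23 (30.4%), namely ZNF575, ZNF576, ZNF428, ZNF230, ZNF224, ZNF225 and ZNF180. Together these 3 clusters, singled out for their low shares, held 99 ZNF genes of which 18 (18.2%) had a single-antibody peak, while 108 of the 147 ZNF genes elsewhere (73.5%) had one. With 10 kb around genes the lowest share was 21.6% (8 of 37), in the cluster from ZNF101 to ZNF254. Shared peaks lay at 5 of the 99 and at 57 of the 147 (38.8%), and knockdown-unique peaks at 1 and at 34 (23.1%).

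The cluster from ZNF575 to ZNF180 differed by antibody. Its 23 ZNF genes had control ETO peaks at 2, control Flag peaks at 5, knockdown ETO peaks at 7 and knockdown Flag peaks at none. The 10 other genes in the same stretch had peaks at 4, 6, 5 and 5, and 4 of them had a shared peak, which none of the ZNF genes had. ZNF428 and ZNF180 were its 2 genes with control-unique peaks.

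**Figure D2:**
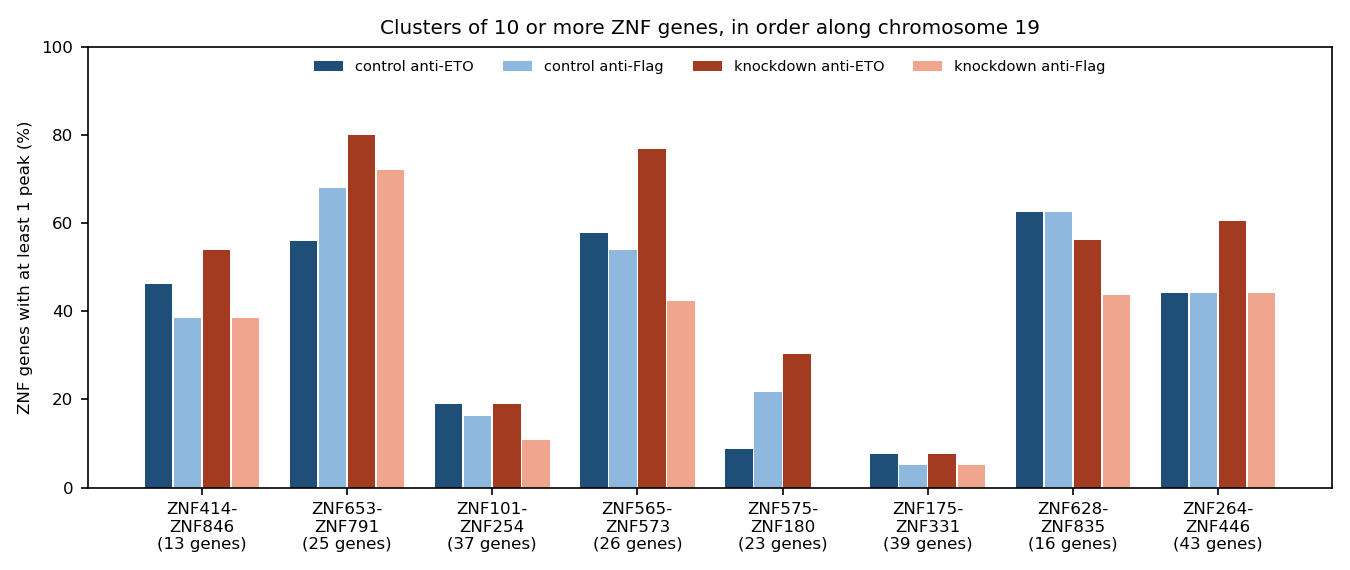
Percentage of ZNF genes with at least 1 peak in each single-antibody list (bar colours), for the 8 clusters of 10 or more ZNF genes (x axis, in order along the chromosome). Shares are low in ZNF101-ZNF254, ZNF575-ZNF180 and ZNF175-ZNF331, and the knockdown Flag bar is at 0 in ZNF575-ZNF180.

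**Figure D3:**
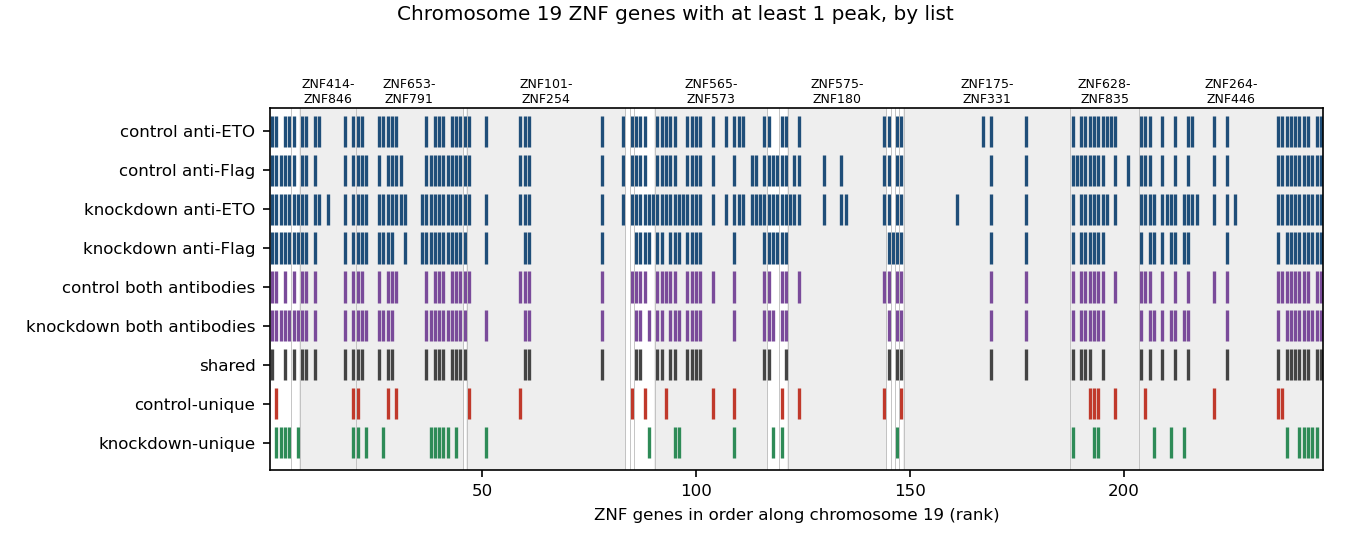
Each vertical mark is 1 of the 246 ZNF genes with at least 1 peak in the list named on the y axis, placed by its rank along chromosome 19; grey bands are the clusters of 10 or more genes and thin lines divide clusters. In the single-antibody lists long stretches without marks fall in ZNF101-ZNF254, ZNF575-ZNF180 and ZNF175-ZNF331. The control-unique and knockdown-unique lists (24 and 35 genes) have few marks and long gaps in other clusters too.

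At ZNF genes the peaks lay close to gene starts. For 216 ZNF genes and 969 other chromosome 19 genes the reference gave a strand and start sites, and each peak at a gene was placed by its centre. In control ETO, 106 of 117 gene-peak pairs (90.6%, 83.9 to 94.7) were within 1 kb of a start, against 55.8% at other chromosome 19 genes. The share was 70.8% (63.6 to 77.2) against 43.6% in control Flag, 76.8% (70.4 to 82.1) against 44.4% in knockdown ETO, and 48.5% (42.2 to 54.9) against 34.2% in knockdown Flag. It was 86.3% against 52.5% for shared peaks, 86.4% against 54.0% for control-unique peaks and 52.3% against 32.4% for knockdown-unique peaks. The ZNF genes thus had the higher share near starts in each of these lists. Knockdown Flag peaks were the most spread, with 98 of 235 pairs (41.7%) elsewhere in the body and 20 (8.51%) within 1 kb of the gene's end.

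**Figure D4:**
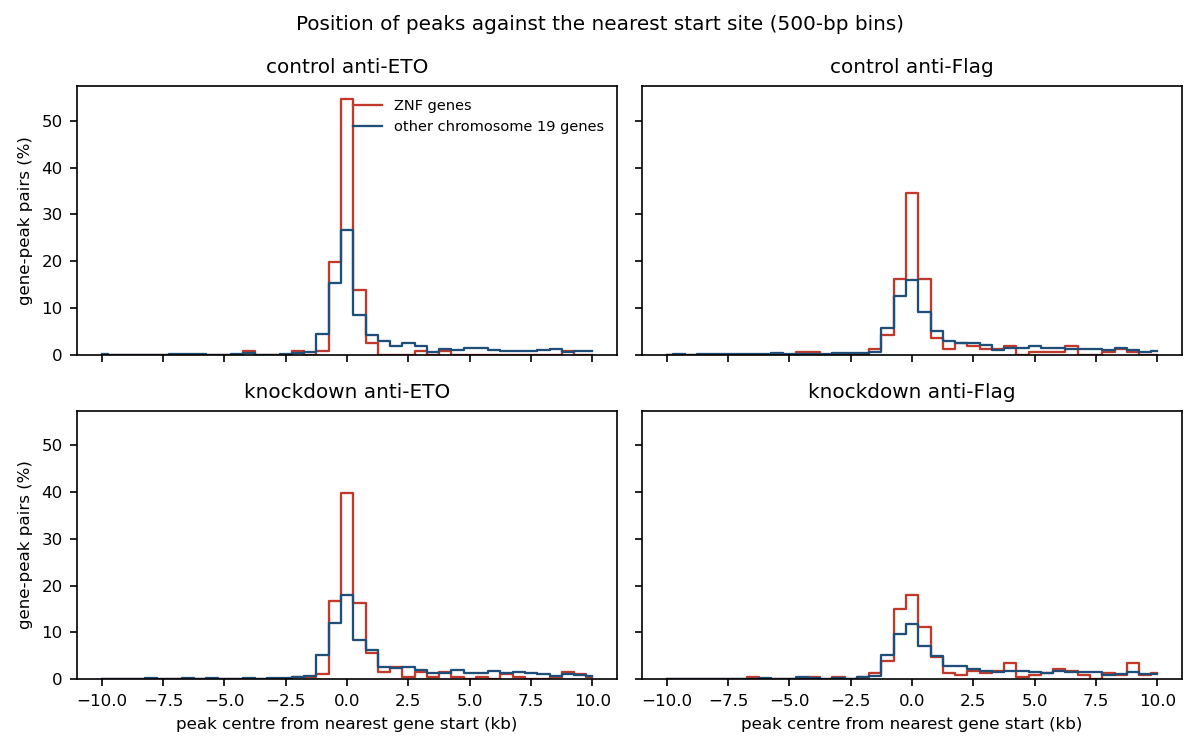
Distance from a peak's centre to the nearest annotated start of the gene it lies at, in 500-bp bins (x axis, kb; negative values are upstream), as a percentage of gene-peak pairs (y axis), in the 4 single-antibody lists. ZNF genes (red) have the taller maximum at the start in each panel, and it is lowest in knockdown Flag.

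Peaks were fewer per gene and per base than at other genes. ZNF genes with 1 kb on either side covered 7.49 Mb and held 113 control ETO, 165 control Flag, 196 knockdown ETO and 232 knockdown Flag peaks. This came to 15.1, 22.0, 26.2 and 31.0 peaks per Mb, against 42.8, 74.3, 72.8 and 101 at the other chromosome 19 genes. Shared peaks came to 9.35 per Mb against 30.6. Some peaks at ZNF genes also lay at another chromosome 19 gene. These were 13.3% in control ETO, 10.9% in control Flag, 11.2% in knockdown ETO, 6.90% in knockdown Flag and 15.7% of shared peaks. Of the ZNF genes, 52 had peaks but never more than 1 in any single-antibody list, and 16 had 5 or more in 1 list. These counts were not made for other genes, so whether they differ there was not tested. Median widths were near those of the other chromosome 19 peaks, at 522 bp against 459 bp in control ETO and 341 bp against 360 bp in knockdown Flag.

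Between control and knockdown, anti-ETO peaks were found at more ZNF genes and anti-Flag peaks at fewer. Of the 92 ZNF genes with a control ETO peak, 90 also had a knockdown ETO peak, and 31 had one in knockdown only. The ratio of knockdown to control was 1.32, against 1.19 at other chromosome 19 genes and 1.16 over all genes. For anti-Flag, 76 ZNF genes had peaks in both conditions, 21 in control only and 11 in knockdown only, a ratio of 0.897 against 1.01 at other chromosome 19 genes and 0.831 over all genes. The knockdown ETO list was longer than the control ETO list over the whole genome. With the 4 lists cut to an equal 14264 peaks by width, ZNF genes with a peak numbered 92 in control ETO, 99 in knockdown ETO, 72 in control Flag and 65 in knockdown Flag.

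The outcome of both antibodies together was a set of genes with ETO but without Flag in knockdown. Of the 121 ZNF genes with a knockdown ETO peak, 35 (28.9%) had no knockdown Flag peak, against 8.77% of such genes among the other chromosome 19 genes, 26.3% among the ZNF genes of other chromosomes and 27.2% over all genes. A pattern of peaks in control ETO, control Flag and knockdown ETO but not in knockdown Flag occurred at 13 ZNF genes (5.28%): ZNF101, ZNF180, ZNF211, ZNF254, ZNF274, ZNF420, ZNF428, ZNF430, ZNF507, ZNF566, ZNF583, ZNF763 and ZNF805. The same pattern occurred at 2.24% of the other chromosome 19 genes and 6.16% of all genes. ZNF274 encodes a KRAB zinc finger protein known to bind the 3' ends of zinc finger genes and to recruit SETDB1 there. Of the 21 genes with Flag peaks in control only, 19 (90.5%) had a knockdown ETO peak and 12 (57.1%) a control-unique peak. The shares were 60.3% and 37.0% of 73 such genes among the other chromosome 19 genes, and 76.2% and 64.4% of 2037 over all genes. A further 10 genes, ZNF225, ZNF266, ZNF461, ZNF480, ZNF548, ZNF550, ZNF575, ZNF586, ZNF607 and ZNF792, had peaks in the knockdown ETO list alone, 4.07% of ZNF genes against 1.41% of the other chromosome 19 genes and 3.73% of all genes. ZNF541, in knockdown Flag alone, was the single ZNF gene with a knockdown Flag peak and no knockdown ETO peak.

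Unique peaks lay at ZNF genes in shares near those over all genes. Control-unique peaks lay at 24 ZNF genes, 9.76% (6.64 to 14.1), against 14.0% of the other chromosome 19 genes and a background of 12.3%, and the interval included the share of the other genes. With the wider 50% of each list the direction turned, to a difference of 0.861 points. Knockdown-unique peaks lay at 35, 14.2% (10.4 to 19.1), against 30.6% and a background of 12.4%. More ZNF genes had a knockdown-unique than a control-unique peak, a ratio of 1.46 against 2.18 at the other chromosome 19 genes and 1.01 over all genes. With the 4 single-antibody lists cut to equal length by width the order turned, to 20 genes with knockdown-unique and 29 with control-unique peaks (ratio 0.690). Both kinds were present at 7 ZNF genes (2.85%), against 5.81% of the other chromosome 19 genes and 2.17% of all genes.

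The 2 kinds of unique peak differed in what the other condition showed at the same place. Of the 23 distinct control-unique peaks at ZNF genes, 21 (91.3%) overlapped a knockdown ETO peak and no knockdown Flag peak, and 2 overlapped neither. At other chromosome 19 genes 116 of 155 (74.8%) overlapped knockdown ETO alone. Of the 44 knockdown-unique peaks at ZNF genes, 19 (43.2%) overlapped a control Flag peak alone, 4 a control ETO peak alone, 1 both and 20 (45.5%) neither. At other chromosome 19 genes these classes held 52.7%, 4.13%, 6 peaks and 42.0% of 533. Overlap with both antibodies was rare by how the unique lists were made. The lists also differed in length: 14264 peaks in control ETO, 23162 in control Flag, 22594 in knockdown ETO and 25961 in knockdown Flag. The part of list length in these shares was not tested, and they were not counted over the whole genome.

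Among the widest control-unique peaks, that at ZNF428 had its centre 87 bp inside the gene start. At this start the control ETO peak (749 bp), the control Flag peak (750 bp) and the knockdown ETO peak (775 bp) nearly coincided and knockdown Flag had no peak. ZNF583 had the same arrangement, with peaks of 676 bp in control ETO, 710 bp in control Flag and 710 bp in knockdown ETO (control-unique, chr19:56403827-56404536). So did ZNF180, with 659, 434 and 750 bp (control-unique, chr19:44500120-44500778). At ZNF211 the 3 peaks were 546, 736 and 821 bp wide. In these 4 genes the knockdown ETO peak was wider than that of control ETO. The knockdown ETO list was also longer, with 22594 peaks against 14264. A control-unique peak is one that no knockdown peak of both antibodies overlaps. Where knockdown ETO kept its peak, the absence of Flag therefore follows from how the list was made.

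The other widest control-unique peaks lay at ZNF69 and ZNF763 (916 bp, 1 peak within reach of both genes), ZNF653 (727 bp), ZNF599 (704 bp) and ZNF580 with ZNF581 (699 bp, again 1 peak). At 3 of these 4 places the knockdown ETO peak was narrower than that of control ETO: 657 against 916 bp at ZNF69 and ZNF763, 421 against 727 bp at ZNF653, and 274 and 345 bp against 697 bp at ZNF580. At ZNF599 it was wider, 710 against 415 bp. At ZNF653 the control-unique peak was at the start and also within 1 kb of ECSIT. A shared peak of 1639 bp lay beyond the other end of ZNF653 and was also within 1 kb of ELAVL3. Small knockdown-unique peaks of 328 and 186 bp lay in the body of ZNF653.

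The widest knockdown-unique peak was at ZNF563 (1590 bp, chr19:12332595-12334184). Here control ETO had no peak, control Flag had 1 of 187 bp, knockdown ETO had 1 of 1386 bp and knockdown Flag had 3 of 173, 456 and 330 bp within 1 kb of the same start, plus 1 at the far start. ZNF823 repeated this, with a control Flag peak of 187 bp and a knockdown ETO peak of 1156 bp (knockdown-unique, chr19:11737737-11738892). At ZNF709 they were 272 and 1174 bp (chr19:12484081-12485254), and at ZNF780B 345 and 776 bp within a knockdown-unique peak of 920 bp (chr19:40055691-40056610). All 4 genes had a control Flag and no control ETO peak, so the control list with both antibodies could not include them. ZNF580 with ZNF581 (1517 bp), ZNF439 (1072 bp), ZNF799 (1019 bp), ZNF442 (922 bp) and ZNF544 (708 bp) completed the widest. The ZNF544 interval was not free of control peaks. It overlapped peaks of all 4 single-antibody lists, among them 206 bp in control ETO and 448 bp in control Flag. It was knockdown-unique because the control list with both antibodies held no peak there.

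Shared peaks were widest at ZNF443 (3633 bp, chr19:12438123-12441755), ZNF799 (2749 bp, chr19:12399512-12402260), ZNF564 (2696 bp) and ZNF69 with ZNF700 (2683 bp, 1 peak). Next came ZNF558 (2567 bp), ZNF324 with ZNF446 (2457 bp, 1 peak), ZNF324B (2258 bp) and ZNF296 (2230 bp). The peak at ZNF558 was also within 1 kb of MBD3L1, and that at ZNF296 within 1 kb of GEMIN7. At ZNF443 the peak over the start was 2151 bp wide in control ETO, 2702 bp in control Flag, 2458 bp in knockdown ETO and 2932 bp in knockdown Flag. It was present in all 4 lists, and the gene had 1, 3, 5 and 8 peaks in them in the same order. At ZNF324 the wide shared peak lay at the gene's end, next to ZNF446, and a shared peak of 724 bp lay at its start.

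ZNF799 had the most single-antibody peaks, 28 in all, with 1 in control ETO, 6 in control Flag, 8 in knockdown ETO and 13 in knockdown Flag. Next came ZNF584 with 23 (3, 7, 5 and 8), ZNF490 with 18 (2, 3, 5 and 8), ZNF791 with 18 (3, 5, 3 and 7) and ZNF324B with 17 (1, 4, 2 and 10). In each of these 5 genes knockdown Flag held the most peaks. They were chosen by the sum over the 4 lists, of which knockdown Flag was the longest (25961 peaks). That list also held the most gene-peak pairs over all ZNF genes (246) and over the other chromosome 19 genes (2959). ZNF490 and ZNF791 stand head to head, and the peaks on either side of the gap between their starts counted for both genes. The 5 knockdown-unique peaks of ZNF799 flanked its shared peak on both sides.

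**Figure D5:**
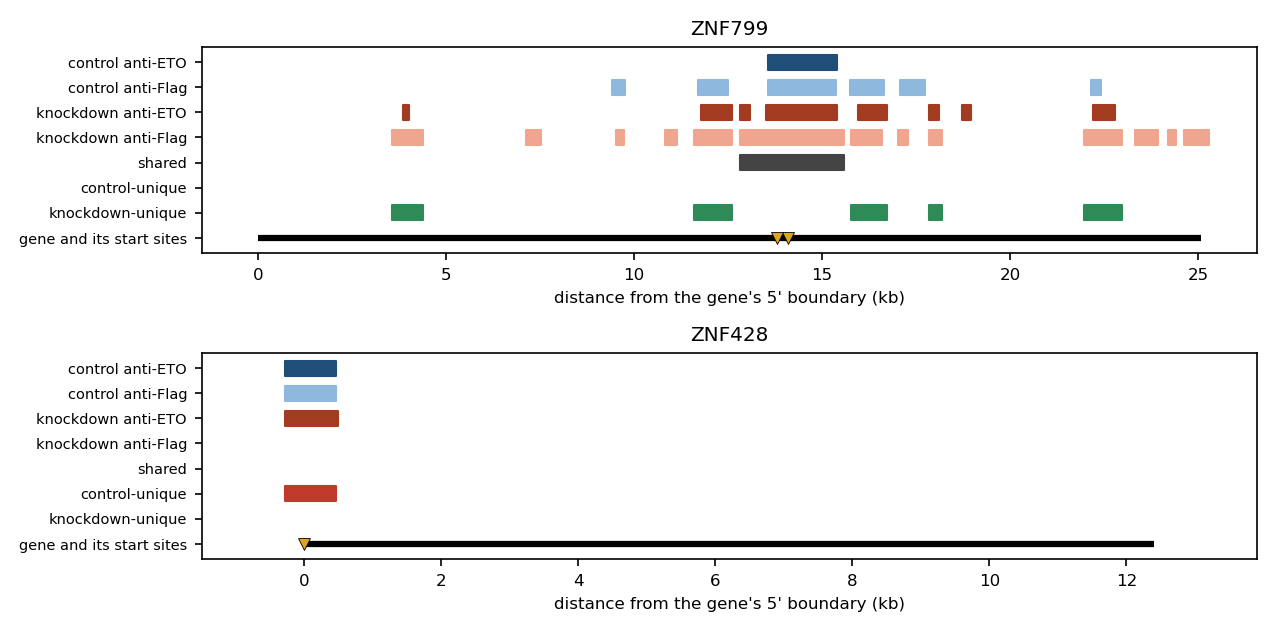
Peaks (bars) at ZNF799 and ZNF428 in 7 of the lists (y axis), against distance from the gene's 5' boundary (x axis, kb); the black line is the gene body and triangles are annotated starts. ZNF799 has its widest peaks over its starts and 5 knockdown-unique peaks around them, while ZNF428 has a peak at its start in every single-antibody list but knockdown Flag.

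ZNF443, ZNF563, ZNF823, ZNF69 and ZNF439 belong to the cluster of the highest share. Over the 24 promoters of that cluster, identity across 250 bases had a median of 62.0% in 276 pairs and was 70% or more in 31. ZNF443 and ZNF563 had 80.4% identity, ZNF823 and ZNF563 80.0%, and ZNF823 and ZNF443 77.2%. ZNF439 and ZNF69 were no closer to these than most pairs, with 58.8% to ZNF563 for each and 60.8% between ZNF69 and ZNF443. The pair with the highest identity, 87.6%, was ZNF439 (chr19:11848476-11848725, plus strand) and ZNF69 (chr19:11887532-11887781, plus strand), shown because alike promoters had unlike calls.
ZNF439: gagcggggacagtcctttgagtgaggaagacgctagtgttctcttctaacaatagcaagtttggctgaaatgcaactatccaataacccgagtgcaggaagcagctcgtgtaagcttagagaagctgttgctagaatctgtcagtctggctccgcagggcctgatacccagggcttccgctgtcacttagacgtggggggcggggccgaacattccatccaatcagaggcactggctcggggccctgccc
ZNF69: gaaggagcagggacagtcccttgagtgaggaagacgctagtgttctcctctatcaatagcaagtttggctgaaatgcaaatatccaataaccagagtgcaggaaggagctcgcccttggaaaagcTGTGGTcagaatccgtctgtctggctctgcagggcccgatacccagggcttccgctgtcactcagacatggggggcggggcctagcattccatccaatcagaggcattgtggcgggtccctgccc
The ZNF69 promoter lay under peaks of all 4 single-antibody lists and a shared peak of 1456 bp. At the ZNF69 start the peaks were 1197 bp wide in control ETO, 1293 bp in control Flag, 1283 bp in knockdown ETO and 1427 bp in knockdown Flag. The printed ZNF439 stretch lay under the knockdown ETO peak of 1072 bp, which was also the knockdown-unique peak (chr19:11848454-11849525). The knockdown Flag peak of 526 bp began inside the gene. A control ETO peak of 212 bp lay 488 bp inside the ZNF439 start, and control Flag had none. The ZNF69 stretch held 1 core match and that of ZNF439 held 0.

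Motifs were counted in windows from 250 bases before to 50 after the start, available for 216 of the 246 ZNF genes (87.8%). TGTGGT or TGCGGT, on either strand, was in 40 ZNF windows (18.5%), in 18.3% of those of the other chromosome 19 genes and in 18.9% of all windows. It was in 16 of the 50 ZNF windows that a shared peak overlapped (32.0%) and in 17 of the 116 that no single-antibody peak overlapped (14.7%). Over all windows the same shares were 23.7% and 17.1%. At the other chromosome 19 genes they were nearly equal, at 62 of 326 and 86 of 451 (19.1%). With any single-antibody peak, TGTGGT or TGCGGT was in 23 of 100 ZNF windows. The share of such windows was 17.6% at the other chromosome 19 genes and 21.6% over all genes. With a control-unique peak, TGTGGT or TGCGGT was in 2 of 15 ZNF windows, in 13 of 52 at the other chromosome 19 genes and in 23.6% over all genes. With a knockdown-unique peak it was in 3 of 15 ZNF windows, in 8 of 62 at the other chromosome 19 genes and in 17.4% over all genes. These ZNF classes were small and no interval was computed. Whether the share at ZNF genes differs with the class of peak was not tested. GGAAGT, a core of the kind bound by ETS factors, was in 87 ZNF windows (40.3%) against 22.1% for the other chromosome 19 genes and 24.7% for all. It was in 43.0% of ZNF windows with a peak and 37.9% of those without. CACGTG, an E-box, was in 9 ZNF windows (4.17%) against 8.82% of all. A match of letters is not a bound site.

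Base composition moved with the peaks. ZNF windows with a single-antibody peak had a median GC content of 62.2% and 22.0 CpG pairs, and those without had 57.3% and 17.0. A peak overlapped 19 of the 72 ZNF windows with 2 to 16 CpG pairs (26.4%), 41 of 74 with 17 to 23 (55.4%) and 40 of 70 with 24 to 49 (57.1%). At the other chromosome 19 genes, shares in the same ranges were 28.9%, 60.1% and 74.1%. Whether composition accounts for the motif shares was not tested.

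Genes of the proteins through which KRAB zinc fingers act mostly had peaks. Of a list of 28 such genes, 26 (92.9%) had a single-antibody peak and 17 (60.7%) a shared peak, against the backgrounds of 52.8% and 29.5%. The listed genes were longer, with a median of 38298 bp against 24170 bp over all protein-coding genes. Among other chromosome 19 genes a single-antibody peak lay at 65.5% of the shortest group and 87.6% of the longest. The part of length in the shares of the listed genes was not tested. TRIM28, on chromosome 19, had 1, 2, 2 and 3 peaks in control ETO, control Flag, knockdown ETO and knockdown Flag, and a shared peak. UHRF1, a reader of methylated DNA on the same chromosome, had 3, 6, 4 and 6 with 2 shared peaks, and DNMT1, the maintenance DNA methylase, had 1 control ETO peak alone. Control-unique peaks lay at 14.3% (5.70 to 31.5) of the listed genes, near the background of 12.3%. MORC2, RBBP4 and TASOR were among those genes. Knockdown-unique peaks lay at 21.4% (10.2 to 39.5) against a background of 12.4%, namely at ATF7IP, CBX1, EHMT1, EHMT2, MORC2 and MORC3. Both intervals included the background. TASOR is a subunit of the HUSH silencing complex and MORC2 works with it, ATF7IP is a partner of SETDB1, and EHMT1 and EHMT2 are histone H3 lysine 9 methylases. PPHLN1, another HUSH subunit, and SMARCAD1, a chromatin remodeller, had no peak.

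ZNF genes on other chromosomes had peaks at somewhat higher shares than those on chromosome 19. Of 263 such genes, 160 (60.8%, 54.8 to 66.5) had a single-antibody peak, against 51.2% (45.0 to 57.4) on chromosome 19, with intervals that overlap. Shared peaks lay at 98 (37.3%) of them, against 25.2%. Control ETO peaks lay at 49.0% of them, control Flag at 50.2%, knockdown ETO at 57.8% and knockdown Flag at 43.7%.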

How the data were processed

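The data were CUT&RUN peak intervals of Flag-tagged AML1-ETO Kasumi-1 cells, with no score; IgG lists were not used here. Per the submitters' processing notes, fastp 0.19.5, Bowtie2 2.3.5, MACS2 2.2.5 and HOMER 4.8 and the builds hg38 and sacCer3 were used, with no role given. The authors' peak threshold, handling of replicates and use of IgG are not given in the sources used here. The derived lists were rebuilt from the single-antibody lists with an overlap of 100 bp, which gave 3059 of 3059 control-unique, 4616 of 4617 knockdown-unique and 8715 of 8731 shared intervals.

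Intervals were compared in Python 3.11.15 (numpy 2.4.6, pandas 2.3.3, scipy 1.17.1), with a minimum overlap of 1 bp and 1 kb around the gene. The overlap functions were tested on simulated data, where 500 of 500 genes were recovered, and bedtools 2.31.1 gave the same numbers for 9 of 9 lists. Genes named are up to 10 with the widest shared, control-unique and knockdown-unique peak, the 5 with the most single-antibody peaks, and pathway genes on chromosome 19 or with a unique peak. An item that this rule names is not reported here. Genes outside this rule (cluster and pattern lists, neighbours within 1 kb of a named peak, ZNF577, ZNF536, ZNF541, PPHLN1 and SMARCAD1) were chosen after their values were seen. The members and lists were chosen with earlier results of these data known. Alternatives were other flanks, overlap rules, start distances and cluster gaps, the nearest gene only, the wider 50% of peaks, equal list lengths, and other zinc finger names included. The planned count of zinc fingers and KRAB boxes was not run, because no protein sequences were used here, and start sites were used for 216 of 246 genes.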

Additional observations from a re-analysis of the deposited data

How the results depend on the processing

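No paired analysis was possible because the lists carry no replicate numbers, and for the same reason no replicate could be left out. Depth is unknown. The lower share of ZNF genes than of other chromosome 19 genes was seen in every list with the gene body only, an overlap of 100 bp, the peak centre, the nearest gene only and other zinc finger names included. With 10 kb around genes the difference grew to -24.9 percentage points in control ETO, -28.4 and -31.1 for both antibodies in control and knockdown, -29.8 for shared peaks, -11.0 and -27.1 for those unique to control and to knockdown, the highest cluster share became 92.0%, and the lowest went from 10.3% to 21.6%, in another cluster. Against other genes inside the clusters it was 3.72 (control ETO), 0.655 (control Flag), 7.35 (knockdown ETO), -1.37 (knockdown Flag), 1.91 and 0.680 (both antibodies, control and knockdown), -2.35 (shared), 3.63 (control-unique) and 0.962 (knockdown-unique). With the wider 50% of each list, ZNF genes with peaks fell to 56 (control ETO), 62 (control Flag), 47 and 48 (both antibodies), 31 (shared) and 16 (knockdown-unique), since lists were shorter, and the control-unique difference turned to 0.861 points. With lists of equal length, 20 ZNF genes had a knockdown-unique peak, the difference was -8.55 points, and the ratio to control-unique genes turned to 0.690. The share of peaks near starts, taken within 500 bp, was 81.2% in control ETO, 59.5% in control Flag, 62.1% in knockdown ETO, 35.3% in knockdown Flag, and 77.6% and 62.9% for both antibodies. Within 2.5 kb it was 80.4% in control Flag, 84.3% in knockdown ETO, 56.2% in knockdown Flag, 83.6% for both antibodies in knockdown and 70.5% for knockdown-unique peaks. These shares follow from the distance itself. Splitting clusters at 250 kb or 1 Mb gave the reported lowest (10.3%) and highest (80.0%) cluster shares.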

Other observations

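Chromosome 19 also holds 19 zinc finger genes under other names (ZFP, ZSCAN, ZIM, ZIK, ZBTB and PEG3), a small set that includes ZFP36, an RNA-binding protein with fingers of another kind. Of these, 11 (57.9%, 36.3 to 76.9) had a single-antibody peak, against a background of 52.8%. A shared peak lay at 8 (42.1%, 23.1 to 63.7), against a background of 29.5%. Both intervals were wide and included the background. ZBTB45, in the list after its values were seen, had 3, 7, 7 and 13 peaks in control ETO, control Flag, knockdown ETO and knockdown Flag, with 2 shared and 3 knockdown-unique peaks. ZBTB7A, a transcription factor of blood cells, had 3, 5, 6 and 4 with 3 shared peaks. No peak lay at 8 of the 19 genes. These were PEG3, ZIM2 and ZIM3, neighbours in an imprinted region, and also ZIK1, ZSCAN1, ZSCAN4, ZSCAN5B and ZSCAN5C. ZFP14 and ZFP82 had a control ETO peak alone.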
